A study of Mus musculus with 6 samples.

Results

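The genes described here are the Mrpl and Mrps genes of the mouse, which encode protein subunits of the mitochondrial ribosome, with Mrps36 as an exception described below. Membership was set by name alone, as every gene symbol of the deposited table that begins with Mrpl or Mrps followed by a digit. This gave 77 of 15035 genes. Earlier results of these data were known when the members were chosen. All 77 were measured well enough to be tested, among 11588 genes tested in all. RNA-seq was done on leukemia cells from BALB/c bone marrow in which retrovirus had introduced mutant CSF3R (a cytokine receptor that drives neutrophil production) and mutant CEBPA (a myeloid transcription factor). For 48 h the cells were given GSK-LSD1 at 4 nM, which inhibits the histone demethylase LSD1 (3 libraries), or the solvent DMSO alone (3 libraries). Both groups carried both mutant genes, and no cells without them were compared. No label states that libraries of 1 group came from separate cultures, animals or transductions, and p-values therefore measure only the spread between these libraries, which may be technical.

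The mitochondrial ribosome translates the few messenger RNAs encoded by mitochondrial DNA, all of which specify inner membrane subunits of the respiratory chain and of ATP synthase. Its ribosomal RNAs are made inside the organelle, whereas every one of its proteins is encoded in the nucleus, translated in the cytosol and imported. Its small subunit reads the message, and its large subunit joins amino acids and passes the new chain out through an exit tunnel. Part of the proteins have counterparts in the bacterial ribosome, and the rest are found only in mitochondria.

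Values are scaled read counts, that is, reads per gene divided by 1 factor per library, and a mean is given ± SD with n = 3 libraries per group. The libraries were close in depth, with 9572638 to 10199533 reads when the lowest non-zero value in each is taken as 1 read. Libraries of 1 group differed by more than sampling noise, with a chi-square per degree of freedom of 1.57 to 1.86 among GSK-LSD1 libraries and 2.52 to 3.51 among DMSO libraries. Between groups it was 17.7 to 20.1. The myeloid label was checked against its markers: all 11 listed myeloid and progenitor genes were detected, of which 6 rose and 3 fell by limma, with a summed value of 21583 to 22170.2 with GSK-LSD1 and 17283 to 18858 with DMSO. Markers of other states moved too. Of 10 genes of neutrophil and macrophage maturation in the table, 9 were tested and all 9 rose, with sums of 22958 to 23839 with GSK-LSD1 and 4780.4 to 5259 with DMSO, and Ltf, the granule protein lactoferrin, was near 0 and not tested. Of 5 erythroid genes all 5 fell, with sums of 33.1 to 46.6 with GSK-LSD1 and 216 to 269.8 with DMSO. The 4 B cell genes in the table summed to 2.07 to 7.14 with GSK-LSD1 and 2.99 to 7.81 with DMSO, and Cd79a was at 0 in the 3 DMSO libraries. The 3 T cell genes summed to 91.1 to 95.9 with GSK-LSD1 and 118 to 141 with DMSO, nearly all of it Lck, a kinase gene that fell, and Cd3d was at 0 in the 3 GSK-LSD1 libraries. The 3 stromal and endothelial genes summed to 4376 to 4502 with GSK-LSD1 and 3563 to 4041 with DMSO, nearly all of it Pecam1, an adhesion molecule that leukocytes also carry, which rose together with Col1a1, while Lepr was at 0 in the 3 DMSO libraries. The part of these shifts in the results below was not tested, and in bulk RNA fewer cells of a type and less RNA per cell cannot be told apart.

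Genes for the mitochondrial ribosome were modestly lower with GSK-LSD1 across both subunits. With limma on log2(value + 1), p-values adjusted by Benjamini-Hochberg across the 11588 genes and a threshold of 0.05, 42 of the 77 fell, none rose and 35 did not pass; under quantile, TMM or equal-total scaling of the libraries 1 gene, Mrpl4, rose. For comparison, 20.5% of all genes tested fell and 20.6% rose. At an unadjusted p under 0.05, 51 of the 77 were lower and 1 was higher, against 24.5% and 23.9% of all genes tested. The median log2 fold change, GSK-LSD1 over DMSO, was -0.19, with quartiles of -0.28 and -0.13 and a range of -0.47 to 0.13, against a median of -0.01 over all genes tested. A log2 fold change below 0 was found for 72 of the 77 and for 51.2% of all genes. All 3 GSK-LSD1 libraries lay below all 3 DMSO libraries in 49 of the 77, against 24.8% of all genes, and above them in 2, against 24.7%. The falls were small and close in size: the 42 genes that passed were between 1.13-fold and 1.39-fold lower, with a median of 1.21-fold. No member reached 1.5-fold, a size that 1341 of the 11588 genes reached.

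**Figure D1:**
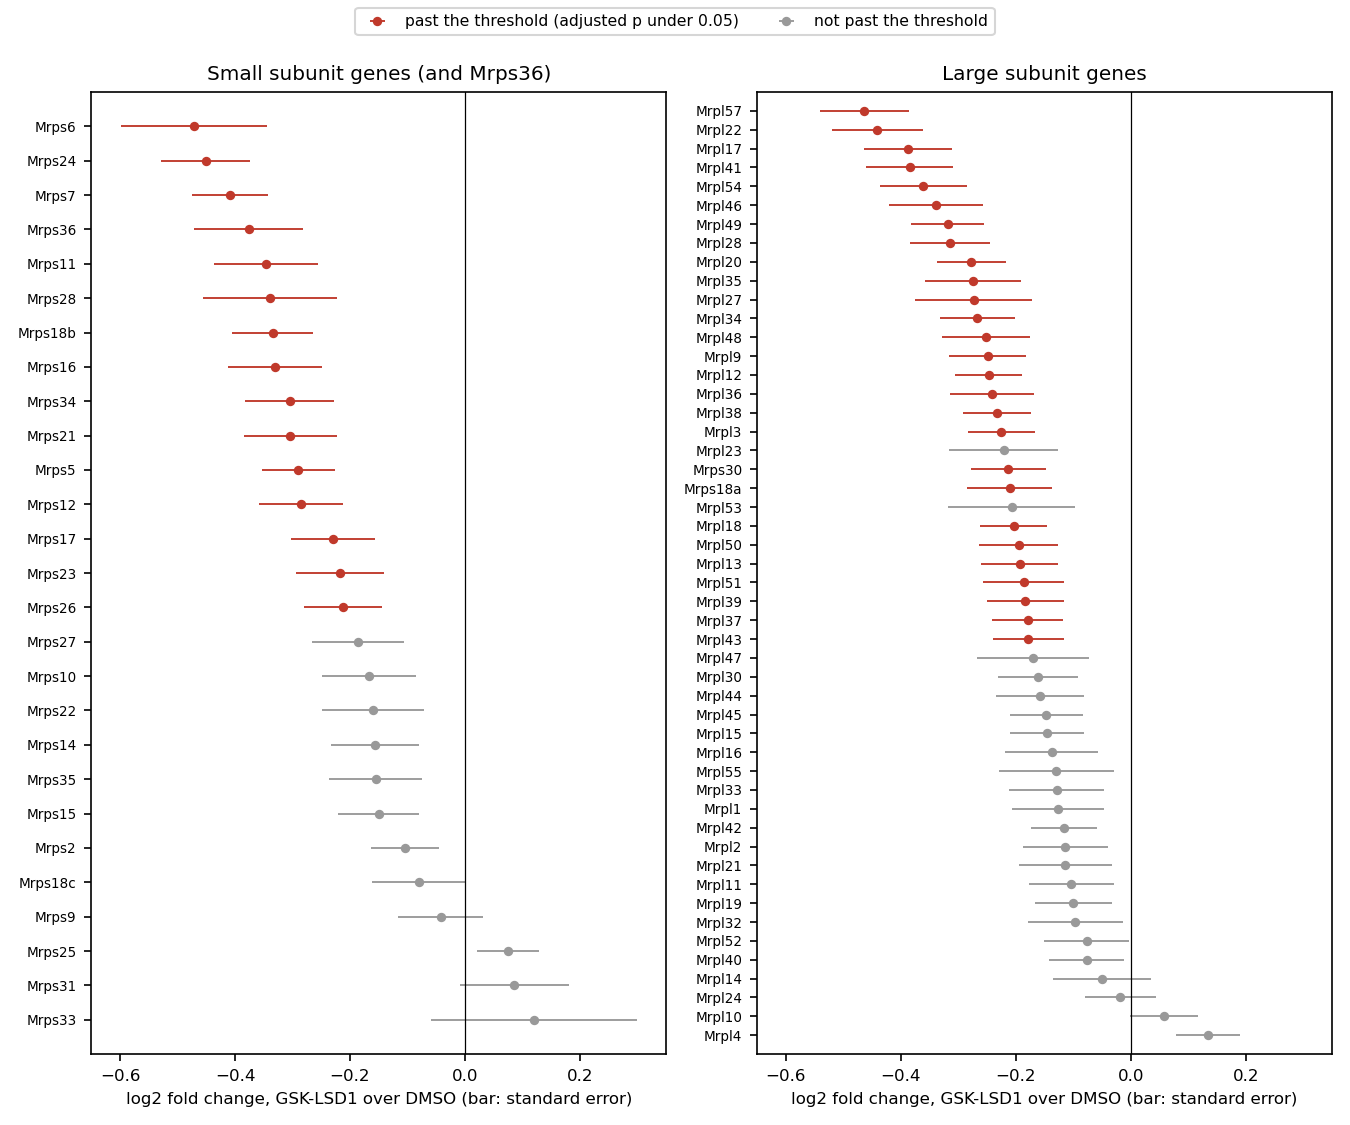
Log2 fold change of each of the 77 Mrpl and Mrps genes, GSK-LSD1 over DMSO, with the standard error of the fit as a bar. Small subunit genes and Mrps36 are on the left and large subunit genes on the right. Red points passed the threshold and grey points did not, and 72 of the 77 lie left of 0.

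Added up within each library, the 77 genes gave 33403, 33888 and 33807 in the 3 GSK-LSD1 libraries, against 37090.4, 39579.7 and 38665 in the 3 DMSO libraries. The groups did not overlap, and the mean sum was 33699 ± 259.9 with GSK-LSD1 and 38445 ± 1259 with DMSO, a difference of -12.3%. As a share of the library total, the sum was 0.341% ± 0.00221 with GSK-LSD1 and 0.383% ± 0.0115 with DMSO. The DMSO libraries differed more among themselves than the GSK-LSD1 libraries did: DMSO replicate 2 held the highest value of its group for 39 of the 77 genes and DMSO replicate 1 the lowest for 41. The small subunit genes made up 0.0996% of the total with GSK-LSD1 and 0.113% with DMSO, and the large subunit genes 0.239% with GSK-LSD1 and 0.268% with DMSO. The ratio of the small to the large subunit sum was 0.417 ± 0.00396 with GSK-LSD1 and 0.421 ± 0.00086 with DMSO, a difference within the spread of the GSK-LSD1 libraries.

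**Figure D2:**
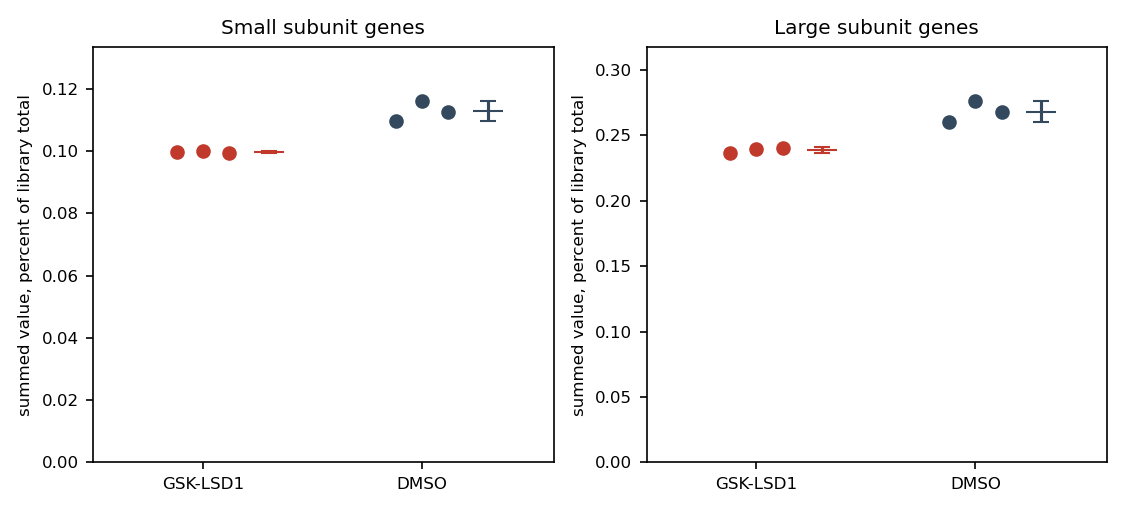
Summed value of the small subunit genes (left) and large subunit genes (right) in each library, as a percent of the library total, with the mean and SD of 3 libraries beside the points. In both panels the 3 GSK-LSD1 libraries lie below the 3 DMSO libraries.

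Of the 26 genes for small subunit proteins, 14 fell and 12 did not pass, with a median log2 fold change of -0.21. The share that fell was 53.8%, beside 20.5% of all genes tested. The 5 largest falls were those of Mrps6, Mrps24, Mrps7, Mrps11 and Mrps28. Mrps6 (chromosome 16, 92058270 to 92112227, GRCm38) encodes a protein of the platform, the side of the subunit where messenger RNA leaves. Its values were 84.7, 80.7 and 90.5 in the GSK-LSD1 libraries, against 118, 118 and 119 in the DMSO libraries. It was 1.39-fold lower with GSK-LSD1, the largest fold among the 77 genes (log2 fold change -0.47, standard error 0.126, adjusted p = 0.00279). The groups stood well apart, although Mrps6 was among the members with the lowest values and 36.1% of its exon bases are shared with Gm49711 on the same strand, so that part of its reads may belong to that gene. Mrps24 (chromosome 11, 5703983 to 5715680), a protein of the head of the subunit near the entry of messenger RNA, had 314, 321 and 305 in the GSK-LSD1 libraries, against 423, 476 and 391 in the DMSO libraries. The lowest DMSO value was above the highest GSK-LSD1 value (log2 fold change -0.45, standard error 0.0778, adjusted p = 1.31e-05). Mrps7 (chromosome 11, 115603925 to 115608036), a head protein that in bacteria helps the small subunit RNA to fold, had 577, 551 and 481 in the GSK-LSD1 libraries, against 718, 698 and 716 in the DMSO libraries. It was 1.33-fold lower, and its DMSO libraries were close together while GSK-LSD1 replicate 3 was the lowest of the 6 (log2 fold change -0.41, standard error 0.0659, adjusted p = 4.38e-06).

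Mrps11 (chromosome 7, 78783119 to 78792989), a platform protein at the path of messenger RNA, had 189, 190.5 and 192 in the GSK-LSD1 libraries, against 242, 252 and 233 in the DMSO libraries. Both groups were tight and did not overlap (log2 fold change -0.35, standard error 0.0907, adjusted p = 0.00226). Mrps28 (chromosome 3, 8802146 to 8923918), related to the bacterial protein S1, had 182, 124 and 153 in the GSK-LSD1 libraries, against 169, 201 and 206 in the DMSO libraries. Here the groups did overlap, since GSK-LSD1 replicate 1 was above DMSO replicate 1 (log2 fold change -0.34, standard error 0.117, adjusted p = 0.0189). The call on Mrps28 was lost without GSK-LSD1 replicate 2, DMSO replicate 2 or DMSO replicate 3, with adjusted p-values of 0.2, 0.0887 and 0.0821. Mrps12, the protein of the decoding centre, whose bacterial counterpart is where resistance to streptomycin arises, had 344, 349 and 382 in the GSK-LSD1 libraries, against 416, 451 and 443 in the DMSO libraries. Its groups did not overlap, and it was 1.22-fold lower (log2 fold change -0.28, standard error 0.0731, adjusted p = 0.00183). The other small subunit genes that fell were Mrps18b, Mrps16, Mrps34, Mrps21, Mrps5, Mrps17, Mrps23 and Mrps26, with log2 fold changes of -0.33 to -0.21.

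Of the 50 genes for large subunit proteins, 27 fell and 23 did not pass, with a median log2 fold change of -0.19. The share that fell was 54%, beside 20.5% of all genes tested. Mrpl57 (chromosome 14, 57826234 to 57829296), a small protein found only in mitochondrial ribosomes, had 304, 313 and 303 in the GSK-LSD1 libraries, against 397, 469.7 and 405 in the DMSO libraries. Its GSK-LSD1 libraries were close to each other and all below the DMSO libraries, with a 1.38-fold fall (log2 fold change -0.46, standard error 0.0774, adjusted p = 7.84e-06). Mrpl22 (chromosome 11, 58171661 to 58179565) and Mrpl17 (chromosome 7, 105803206 to 105811099) encode proteins that line or ring the exit tunnel. Mrpl22 had 293, 300.2 and 347 in the GSK-LSD1 libraries, against 398, 446 and 431 in the DMSO libraries, without overlap (log2 fold change -0.44, standard error 0.0787, adjusted p = 2.21e-05). Mrpl17 had 299, 338 and 309 in the GSK-LSD1 libraries, against 395, 440.0 and 405 in the DMSO libraries, again without overlap (log2 fold change -0.39, standard error 0.0766, adjusted p = 9.13e-05). Both of these tunnel genes were about as far below the control libraries as the most reduced small subunit genes.

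Mrpl41 (chromosome 2, 24974117 to 24975098), a mitochondria-specific subunit, had 327, 395 and 393 in the GSK-LSD1 libraries, against 459, 484 and 512 in the DMSO libraries. GSK-LSD1 replicate 1 was the lowest of the 6, and the groups did not overlap (log2 fold change -0.38, standard error 0.0763, adjusted p = 9.62e-05). Mrpl54 (chromosome 10, 81264713 to 81266934), another mitochondria-specific subunit, had 349, 338 and 393 in the GSK-LSD1 libraries, against 431, 497 and 459.9 in the DMSO libraries, also without overlap (log2 fold change -0.36, standard error 0.0757, adjusted p = 0.000199). Mrpl12, a protein of the flexible stalk that recruits translation factors and that in human cells also binds the mitochondrial RNA polymerase, is among the more abundant members. It had 951, 912 and 912 in the GSK-LSD1 libraries, against 1019, 1213 and 1070.1 in the DMSO libraries, and every GSK-LSD1 library was below every DMSO library (log2 fold change -0.25, standard error 0.0585, adjusted p = 0.000826). The other large subunit genes that fell were, in order of size, Mrpl46, Mrpl49, Mrpl28, Mrpl20, Mrpl35, Mrpl27, Mrpl34, Mrpl48, Mrpl9, Mrpl36, Mrpl38, Mrpl3, Mrps30, Mrps18a, Mrpl18, Mrpl50, Mrpl13, Mrpl51, Mrpl39, Mrpl37 and Mrpl43, with log2 fold changes of -0.34 to -0.18.

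**Figure D3:**
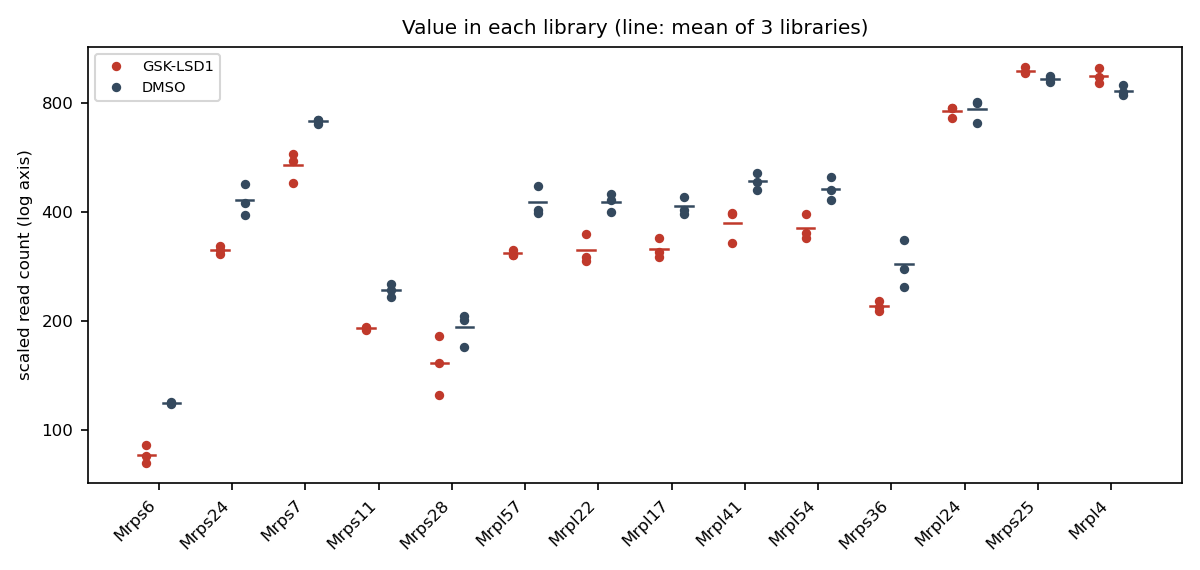
Scaled read count of 14 members in each library on a log axis, GSK-LSD1 in red at the left of each pair and DMSO in dark blue, with a line at the mean of 3 libraries. The groups are apart for the 5 most reduced genes of each subunit except Mrps28, overlap for Mrpl24, and stand the other way round for Mrps25 and Mrpl4.

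By place in the ribosome, counts are read against the 20.5% of all genes tested that fell. Of the 8 head proteins of the small subunit, Mrps24 and Mrps7 fell and 6 did not pass, a share near that of all genes, and the median log2 fold change of the 8 was -0.16. Of the 5 platform proteins, Mrps6, Mrps11 and Mrps21 fell, with a median of -0.30. Of the 12 remaining small subunit proteins outside the decoding centre, 8 fell, with a median of -0.22. In the large subunit, 1 of 3 stalk proteins (Mrpl12), 2 of 4 near the peptidyl transferase centre (Mrpl27 and Mrpl3), 3 of 10 at the exit tunnel (Mrpl22, Mrpl17 and Mrpl39) and 4 of 6 of the central protuberance fell. At the exit tunnel the share was 30%, not far from that of all genes, and the stalk and peptidyl transferase groups are too small to be read against it. The 4 of the central protuberance, the crest that faces the small subunit, were Mrpl46, Mrpl48, Mrpl38 and Mrpl18. The remaining 27 large subunit proteins held 17 that fell. Differences between sites were not tested, and the sites were assigned from general knowledge of the structure.

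**Figure D4:**
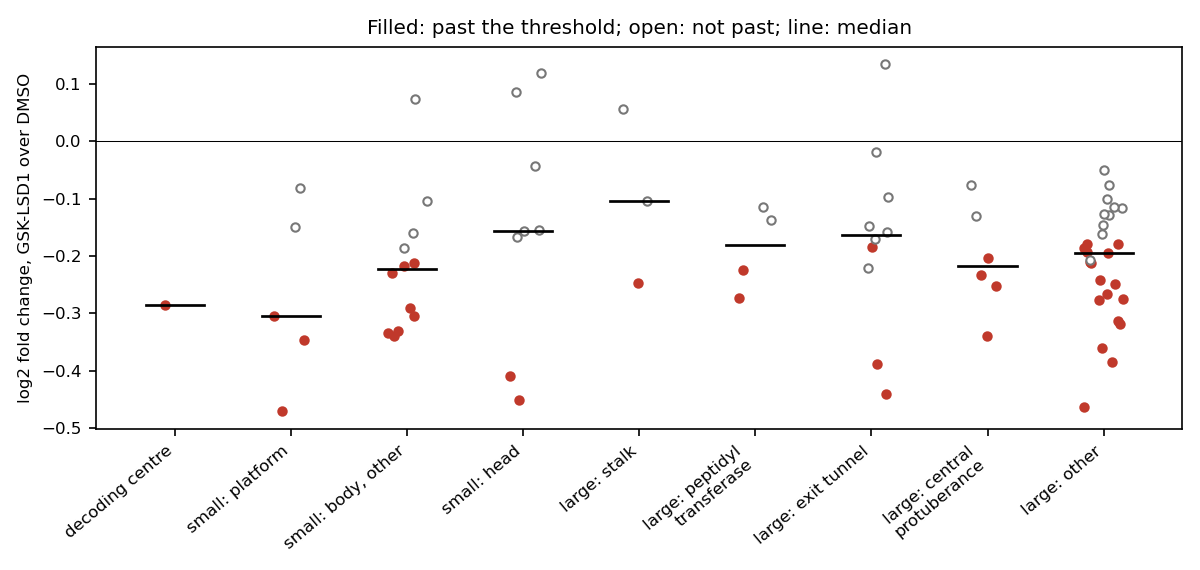
Log2 fold change of each member, GSK-LSD1 over DMSO, grouped by the place of its protein in the small or large subunit. Filled red points passed the threshold, open points did not, and the line is the median, which lies below 0 at every site.

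Proteins with a bacterial counterpart and proteins found only in mitochondria showed like medians. Of 46 genes with a counterpart, 23 fell, with a median log2 fold change of -0.20, and of 30 mitochondria-specific genes 18 fell, with a median of -0.19. These shares were 50% and 60%, beside 20.5% of all genes tested. In the large subunit, 13 of 30 with a counterpart and 14 of 20 without fell, and in the small subunit 10 of 16 with a counterpart and 4 of 10 without. Whether these shares differ was not tested. Mrps18a and Mrps18b, though relatives of the bacterial protein S18, were counted as mitochondria-specific, and Mrps18c as having a counterpart.

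Some names do not tell the place of the protein. Mammals have 3 relatives of the bacterial protein S18. Mrps18b, which sits in the small subunit, had 407, 439.9 and 431 in the GSK-LSD1 libraries, against 525, 592 and 499 in the DMSO libraries and fell 1.26-fold (log2 fold change -0.33, standard error 0.0709, adjusted p = 0.000224), but 59.1% of its exon bases lie opposite Gm16279 and whether reads were counted by strand is not known. Mrps18a, which despite its name sits in the large subunit, had 345, 359 and 349 in the GSK-LSD1 libraries, against 396, 389 and 435 in the DMSO libraries (log2 fold change -0.21, standard error 0.0736, adjusted p = 0.0204). Its groups did not overlap, yet the call was lost without GSK-LSD1 replicate 1, GSK-LSD1 replicate 3 or DMSO replicate 3, with adjusted p-values of 0.065, 0.0578 and 0.104. Mrps18c, a small subunit platform protein, had 299.9, 342 and 329.9 in the GSK-LSD1 libraries, against 361, 306 and 361 in the DMSO libraries, and its groups overlapped (log2 fold change -0.08, standard error 0.082, adjusted p = 0.458). The 3 relatives thus had log2 fold changes of -0.33, -0.21 and -0.08, whose difference from each other was not tested.

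Mrps30 also belongs to the large subunit and was placed there in the counts above. It had 525, 473 and 517 in the GSK-LSD1 libraries, against 592, 572 and 591 in the DMSO libraries, without overlap (log2 fold change -0.21, standard error 0.0649, adjusted p = 0.00803), and its call was lost without GSK-LSD1 replicate 2 (adjusted p = 0.0725). Mrps36 is no part of the mammalian ribosome but of the 2-oxoglutarate dehydrogenase complex of the citric acid cycle. It had 218, 212 and 226 in the GSK-LSD1 libraries, against 277, 334 and 248 in the DMSO libraries, and all GSK-LSD1 values were below all DMSO values (log2 fold change -0.38, standard error 0.0949, adjusted p = 0.00154). The annotation holds 3 pseudogenes named after Mrps36 and 1 each for Mrpl23 and Mrpl48, which could share reads with them. Without Mrps36, 41 of 76 genes fell, beside 20.5% of all genes tested.

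Members that did not pass included those with the smallest change and those with values to the other side. Mrpl24 had 773, 724 and 775 in the GSK-LSD1 libraries, against 703, 803 and 797 in the DMSO libraries, with DMSO replicate 1 the lowest of the 6 (log2 fold change -0.02, standard error 0.0611, adjusted p = 0.838). Mrps9, a head protein, had 454, 494 and 496 in the GSK-LSD1 libraries, against 435, 525 and 533 in the DMSO libraries (log2 fold change -0.04, standard error 0.0738, adjusted p = 0.677), and Mrpl14 had 244, 237 and 255 in the GSK-LSD1 libraries, against 255, 256 and 251 in the DMSO libraries (log2 fold change -0.05, standard error 0.0852, adjusted p = 0.672). In these 3 genes the groups overlapped, and 38.1% of the exon bases of Mrpl24 lie opposite Rrnad1. Mrpl4, a tunnel protein, was the highest of the 77 by fold change, with 908, 939.8 and 998 in the GSK-LSD1 libraries, against 842, 893 and 856 in the DMSO libraries. All its GSK-LSD1 values were above all its DMSO values, but it stayed just short of the threshold (log2 fold change 0.13, standard error 0.0561, adjusted p = 0.0527). It passed under quantile, TMM and equal-total scaling (adjusted p = 0.043, 0.0494 and 0.0272), and without GSK-LSD1 replicate 1 or DMSO replicate 2 (0.0428 and 0.0434), and its adjusted p reached 0.264 without GSK-LSD1 replicate 3. Mrps25 had 1004, 963 and 970.3 in the GSK-LSD1 libraries, against 910.2, 946 and 933 in the DMSO libraries, also without overlap and also not past the threshold (log2 fold change 0.07, standard error 0.0537, adjusted p = 0.28), and 58.2% of its exon bases lie opposite Nr2c2. The other 3 members with a log2 fold change above 0 were Mrpl10, Mrps31 and Mrps33, at 0.06, 0.09 and 0.12, and none passed; Mrps33 was below 0 under quantile scaling (-0.09) and without DMSO replicate 1 (-0.05). Of the remaining members that did not pass, the small subunit genes Mrps27, Mrps10, Mrps22, Mrps14, Mrps35 and Mrps2 had log2 fold changes of -0.19 to -0.10. The large subunit genes Mrpl23, Mrpl53, Mrpl47, Mrpl30, Mrpl44, Mrpl45, Mrpl15, Mrpl16, Mrpl55, Mrpl33, Mrpl1, Mrpl2, Mrpl21, Mrpl11, Mrpl19, Mrpl32 and Mrpl40 had log2 fold changes of -0.22 to -0.08. All of these were below 0, and all exon bases of Mrpl53 are shared with Gm42688.

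Levels were compared between genes per kilobase of exon, as the mean over the 6 libraries. They ran from 36.6 to 1288, with a median of 289, so members differed widely in RNA level. The 3 highest of the large subunit were Mrpl42 at 1288, Mrpl34 at 1228 and Mrpl52 at 939 per kilobase, and those of the small subunit were Mrps21 at 642, Mrps15 at 463 and Mrps18b at 447. High level did not go with one outcome. Mrpl34 had 717, 682 and 629 in the GSK-LSD1 libraries, against 736, 886 and 822 in the DMSO libraries and fell (log2 fold change -0.27, standard error 0.0653, adjusted p = 0.00114), as did Mrps21, with 255, 292 and 302 with GSK-LSD1 and 339.8, 362 and 344 with DMSO (log2 fold change -0.30, standard error 0.0814, adjusted p = 0.00276). Mrpl42 had 826, 869 and 820.5 with GSK-LSD1 and 864, 891 and 975 with DMSO (log2 fold change -0.12, standard error 0.0577, adjusted p = 0.108), Mrpl52 had 439, 466 and 439.9 with GSK-LSD1 and 416, 498 and 509 with DMSO (log2 fold change -0.08, standard error 0.0739, adjusted p = 0.429) and Mrps15 had 423, 408 and 401 with GSK-LSD1 and 438, 489 and 443 with DMSO (log2 fold change -0.15, standard error 0.0704, adjusted p = 0.086), and none of these 3 passed. Across the 77 genes, which share the same 6 libraries, the log2 fold change had a Spearman rho of 0.151 with the mean value and 0.179 with exon length. Over all 11588 genes tested, its rho with the mean value was -0.202. The median of the mean values was 428 for the members and 351 for all genes tested. The part of this trend in the falls of the members was not tested. The 26 shortest members (478 to 1056 exon bases) had a median log2 fold change of -0.27, the 25 of middle length -0.18 and the 26 longest -0.19.

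Of the 42 falls, 25 held when each of the 6 libraries was left out in turn and 17 were lost in at least 1 of these fits. The 17 were Mrps28, Mrps17, Mrps23, Mrps26, Mrps18a, Mrps30, Mrpl35, Mrpl27, Mrpl48, Mrpl36, Mrpl18, Mrpl50, Mrpl13, Mrpl51, Mrpl39, Mrpl37 and Mrpl43. Without GSK-LSD1 replicate 1, 2 or 3 in turn, 36, 30 and 37 of the 42 calls remained, and without DMSO replicate 1, 2 or 3 the numbers were 39, 35 and 35. Mrpl48 and Mrps30 were lost only without GSK-LSD1 replicate 2 (adjusted p = 0.0538 and 0.0725 by limma), and Mrpl36 and Mrpl18 only without DMSO replicate 2 (adjusted p = 0.153 and 0.0516). The rest of the 17 were each lost in 2 to 4 of these fits, with highest adjusted p-values of 0.0629 (Mrpl35) to 0.248 (Mrpl51). The 10 genes named above as the most reduced of each subunit were all among the 25 except Mrps28. Exons of 25 members overlap another annotated gene, in 20 of them on the other strand, such as 15.2% of the exon bases of Mrpl12, opposite Gm16755, and 6.47% of those of Mrps7, opposite Gga3. Among the 52 members without such overlap 27 fell (51.9%, beside 20.5% of all genes tested), with a median log2 fold change of -0.19.

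Subunits of the same ribosome that carry other names were also mostly lower. Of 6 such genes, 4 fell (66.7%), beside 20.5% of all genes tested, a count that rests on few genes. Gadd45gip1 had 772, 847 and 790.3 with GSK-LSD1 and 955, 1058 and 994 with DMSO, and its groups did not overlap (log2 fold change -0.32, standard error 0.0574, adjusted p = 2.43e-05). Aurkaip1 (-0.24), Dap3 (-0.23), a GTP-binding protein also named for a role in cell death, and Ptcd3 (-0.18), a small subunit RNA-binding protein, fell as well. Chchd1 (-0.16, adjusted p = 0.0757 by limma) and Ict1 (-0.14, adjusted p = 0.211 by limma) did not pass.

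Of 27 genes for assembly of the ribosome and modification of its RNAs, 8 fell (29.6%), 1 rose and 18 did not pass, with a median log2 fold change of -0.14. Among all genes tested 20.5% fell and 20.6% rose. Nsun4, a methyltransferase of the small subunit RNA, averaged 168 ± 16 with GSK-LSD1 and 218 ± 17.1 with DMSO (log2 fold change -0.37, standard error 0.101, adjusted p = 0.00289). Noa1, a GTPase of small subunit assembly, averaged 473 ± 18.7 with GSK-LSD1 and 599.8 ± 26.8 with DMSO (log2 fold change -0.34, standard error 0.0653, adjusted p = 6.1e-05). Wbscr16 (-0.33) and Malsu1 (-0.28), a large subunit assembly factor, fell as well, and Malsu1 was close to the threshold (adjusted p = 0.048 by limma). Gtpbp10, a GTPase of large subunit assembly, went the other way, with 290.4 ± 31 with GSK-LSD1 and 231 ± 20.3 with DMSO (log2 fold change 0.33, standard error 0.0921, adjusted p = 0.00418).

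Translation factors and the transcription machinery of mitochondria were described from lists of their own. Of 14 translation factors, 3 fell and 11 did not pass by limma, with a median log2 fold change of -0.05. That is 21.4% of the list, near the 20.5% of all genes tested that fell. Tufm, the elongation factor that brings aminoacyl-tRNA to the ribosome, averaged 1296 ± 6.28 with GSK-LSD1 and 1561 ± 54 with DMSO (log2 fold change -0.27, standard error 0.0495, adjusted p = 3.63e-05). Tsfm, which recharges Tufm, and Mtfmt, which formylates the initiator tRNA, fell too, at -0.28 and -0.26. None of 8 genes of mitochondrial transcription passed, and 3 had an unadjusted p under 0.05 by limma. Of these, Slirp (log2 fold change -0.22) and Tfam were lower and Mterf1b (0.51) was higher. Mterf1b had low values, with means of 28.6 with GSK-LSD1 and 20.1 with DMSO. Among all genes tested, 24.5% were lower and 23.9% higher at that level. Tfam, which packages mitochondrial DNA, had a log2 fold change of -0.13 (adjusted p = 0.101 by limma) and Polrmt, the mitochondrial RNA polymerase, one of -0.05 (adjusted p = 0.558). None of 15 listed symbols of genes encoded in mitochondrial DNA was found among the deposited values, so these genes were not analysed here. Whether these shares differ from that of the ribosomal proteins was not tested.

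Among 10 regulators of mitochondrial or ribosome genes, 3 fell, in a table where 20.5% of all genes tested fell. Mycn had 622, 584 and 604 in the GSK-LSD1 libraries, against 1357, 1378 and 1248 in the DMSO libraries, without overlap and 2.2-fold lower with GSK-LSD1 (log2 fold change -1.14, standard error 0.0567, adjusted p = 1.53e-18). Pprc1, a coactivator of nuclear-encoded mitochondrial genes, averaged 1652 ± 41.8 with GSK-LSD1 and 2036 ± 118 with DMSO (log2 fold change -0.30, standard error 0.0496, adjusted p = 6.78e-06), and Myc averaged 4820.4 ± 306 with GSK-LSD1 and 5603 ± 164 with DMSO (log2 fold change -0.22, standard error 0.0462, adjusted p = 0.000219). The other 7 did not pass: Nrf1 (-0.15), Esrra (-0.10), Gabpa (-0.07), Yy1 (-0.04), Gabpb1 (-0.01), Gabpb2 (-0.01) and Ppargc1b (0.09), given as log2 fold changes. The part of these regulators in the values of the ribosomal genes was not tested.

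Set beside other large assemblies, the Mrpl and Mrps genes had the same median log2 fold change as the proteins of the cytosolic ribosome. Of 77 tested cytosolic ribosomal protein genes, 62 fell and none rose, with a median of -0.19, and at an unadjusted p under 0.05 the counts were 66 and 0. Nuclear genes for respiratory chain subunits were taken by symbol, with ATP synthase genes included. Of the 77 tested, 29 fell and 1 rose, with a median of -0.13. The shares that fell were 80.5% of the cytosolic and 37.7% of the respiratory chain genes, beside 20.5% of all genes tested. The differences between these groups were not tested.

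**Figure D5:**
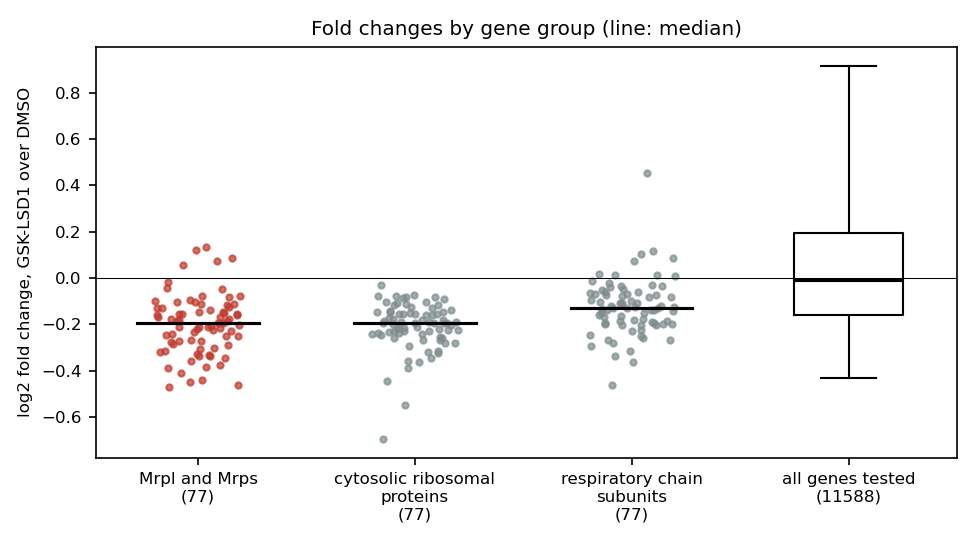
Log2 fold change, GSK-LSD1 over DMSO, of the Mrpl and Mrps genes, cytosolic ribosomal protein genes, respiratory chain genes and all genes tested. Respiratory chain genes include those of ATP synthase. Points are genes and lines medians; for all genes the box spans the quartiles and the whiskers the 5th to 95th percentile. The first 2 medians are both -0.19 and the median of all genes is -0.01.

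Promoter sequence was read from RefSeq (GRCm38.p6), which gave 74 windows for 68 of the 77 genes, each from 250 bases before to 50 bases after a transcription start. On either strand, AAGATGGC, the core of the motif of the zinc finger protein YY1, was found in 12 of the 68 genes (17.6%), against 4.84% of the genes of the deposited table and 3.19% of all genes in the reference. CCGGAAGT, bound by ETS factors such as GABP, was also found in 12 of the 68 (17.6%), against 8.25% and 4.31%. The core motif of NRF1 was found in 3 (4.41%, against 2.11% and 1.07%). The E-box CACGTG was found in 5 (7.35%, against 11.2% and 8.09%), GGGCGG in 34 (against 64.6% and 38.2% of genes) and CCAAT in 27 (39.7%, against 42.3% and 41.1%). Of the 12 genes with AAGATGGC, 9 fell, and of the 56 without it 28 fell. For CCGGAAGT these counts were 7 of 12 and 30 of 56. Among all genes tested 20.5% fell, and each count with a match rests on only 12 genes. A match is a run of letters and not evidence of binding, and these shares were not tested.

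The 3 windows printed here, 30 bases each, are shown because their genes are among the most reduced small subunit members. Mrps6, the most reduced of all members, had no match. Capitals mark AAGATGGC or its reverse complement, and each is written on the strand of its gene.
Mrps24, chr11:5707652-5707681, minus strand: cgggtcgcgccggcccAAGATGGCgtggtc
Mrps7, chr11:115604147-115604176, plus strand: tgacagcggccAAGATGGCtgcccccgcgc
Mrps11, chr7:78783013-78783042, plus strand: ctacgggcgccGCCATCTTtctgtcttccc
In 8 of the 12 genes with a match, it began after the start of the transcript, 11 to 36 bases downstream. The match counted for Mrps11 lies upstream of its own start and past the start of the neighbouring gene Mrpl46 (base 78783089, minus strand). On the strand of Mrpl46 it reads AAGATGGC, but it falls outside the window of that gene and was not counted for it.

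Mrps11 and Mrpl46 lie head to head on chromosome 7, with 41 bases between their RefSeq starts and transcription running outward from both. The stretch is printed with the bases between the starts in capitals.
Mrpl46 and Mrps11, chr7:78783079-78783141, plus strand: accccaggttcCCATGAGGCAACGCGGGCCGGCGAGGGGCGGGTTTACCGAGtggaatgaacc
Mrpl46, a protein of the central protuberance, had 269, 247 and 253 in the GSK-LSD1 libraries, against 312, 344 and 319.5 in the DMSO libraries, without overlap (log2 fold change -0.34, standard error 0.0818, adjusted p = 0.000983). The log2 fold changes of the pair were -0.34 for Mrpl46 and -0.35 for Mrps11.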

How the data were processed

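RNA was measured by RNA-seq in 6 libraries, grouped by their titles. The deposited values are a signal, gene read counts that the authors divided by 1 factor per library: in each column all values were whole multiples of the smallest, within 2% of a step. STAR, DESeq2, mm10 and GRCm38 are named without version or role in the submitters' processing notes. For the counting program, annotation and strand setting the sources used here give nothing. The table held 15035 rows, 22 of them with symbols turned into dates.

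Genes with a value of at least 10 in at least 3 libraries entered the test, 11588 in all. log2(value + 1) was fitted with limma 3.58.1 (R 4.3.3), two-sided, its empirical Bayes step following a trend with the mean, and Benjamini-Hochberg adjusted p-values under 0.05 were called. Fold changes stay on this scale, which understates those of low genes. The method was tested on simulated data. Gene positions and exon lengths came from GENCODE M21 (GRCm38). No sequence of proteins was used. Members and gene lists were chosen with earlier results of these data known. Genes were named by rule: the 5 largest falls of each subunit, the 3 highest per kilobase of each and the 3 smallest changes. The rule also named the Mrps18 family, Mrps30, Mrps36, Mrpl12, Mrps12 and members whose call was lost in at least 1 fit without 1 library. From other lists it named up to 4 that passed in each direction and all regulators. Mrpl46, Mrpl4, Mrps25, Mrpl10, Mrps31, Mrps33, Slirp and Mterf1b were named after their values were seen, as were members given only in lists by site or direction.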

Additional observations from a re-analysis of the deposited data

How the results depend on the processing

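Quantile, TMM and equal-total scaling, pseudocounts of 0.5 and 5, no filter and a mean value of at least 50 left 40 to 45 members lower, and the median log2 fold change of the members lay between -0.2024 and -0.175. Under quantile, TMM and equal-total scaling 1 member, Mrpl4, was higher. Leaving out each library gave 31 to 45 lower and 0 to 1 higher, a median of -0.2208 to -0.1777 and a difference of the summed value of -13.9% to -11.0%; the lowest count was without GSK-LSD1 replicate 2. Among members without exon overlap 27 were lower, since fewer were counted, and without Mrps36 41 were lower, beside 20.5% of all genes tested. Both of these alternatives were chosen after seeing the data. Over all 77 members and all settings run, 4 members changed sign and none of these had passed: Mrpl24 was 0.0017 with equal totals and -0.08 to 0.0154 over the fits without 1 library, Mrps9 was -0.14 to 0.0097 over those fits, Mrpl32 was 0.0031 without DMSO replicate 3, and Mrps33 was -0.0878 under quantile scaling and -0.0476 without DMSO replicate 1. The cause was not tested. Deviations of same-numbered libraries from their group means correlated at -0.0276 to -0.0077, so no shared replicate effect was seen. This cannot tell whether same-numbered libraries were prepared together. With the replicate number as a block 43 members were lower and none higher. Count models were planned and were not run. Values were whole multiples of the smallest in all 6 libraries. In DMSO replicates 2 and 3 that smallest value was so close to 1 (0.991 and 0.995) that the check for whole reads did not accept them. With 3 libraries per group, the median standard error of 0.074 limits what can be seen of changes as small as these.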

Other observations

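Genes that start next to a member on the opposite strand were also described. In GENCODE M21, 27 members had such a partner within 500 bases. Of 24 tested partners that are not Mrpl or Mrps genes, 10 fell, 1 rose and 13 did not pass by limma, with a median log2 fold change of -0.17. The share that fell was 41.7%, beside 20.5% of all genes tested, of which 20.6% rose. Gga3, next to Mrps7, fell, with a log2 fold change of -0.34, as did Tcp1, a subunit of the cytosolic chaperonin next to Mrpl18, at -0.23, and Ptcd2, next to Mrps27, at -0.30. Klc4, a kinesin light chain next to Mrpl2, rose by 0.38 on the log2 scale. Among the 18 partners that are not the gene with the largest exon overlap with the member, 6 fell and 1 rose, counts that rest on few genes. Smaller overlaps were not looked up, and Ndufb5, whose start lies past that of Mrpl47, is among the 18 and may overlap it. This was looked at after the members' values were known and was not tested further.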
